A study of Mus musculus with 8 samples.

Results

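The nuclear genes of respiratory complexes III, IV and V were examined in mouse regulatory T cells (Tregs) early in their differentiation. Members were taken by symbol alone, as every gene of the count table whose symbol starts with Uqcr (complex III), with Cox followed by a digit from 4 to 8 (complex IV) or with Atp5 (complex V), leaving out 6 symbols that hold "-ps". The rule gave 41 of the 28239 symbols in the table, 8 for complex III, 16 for complex IV and 17 for complex V. Of these, 38 reached 2 CPM (counts scaled to the size of the library) in at least 4 of the 8 libraries and were tested, and the untested ones were Cox4i2, Cox6a2 and Cox7b2, all of complex IV.

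These complexes form the last part of oxidative phosphorylation in the inner mitochondrial membrane. Complex III (ubiquinol-cytochrome c reductase) passes electrons from ubiquinol to cytochrome c, complex IV (cytochrome c oxidase) passes them on to oxygen, and both build up a proton gradient that complex V (ATP synthase) uses to make ATP. A few catalytic or membrane subunits are encoded by mitochondrial DNA, whereas most subunits are made from the nuclear genes described here and imported, so that nuclear and mitochondrial products must be matched during assembly. T cells that leave the naive state enlarge their mitochondria, and Tregs are known for a high reliance on oxidative phosphorylation.

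Naive CD4+ T cells were taken from the spleens of wild-type (WT) mice and of mice labelled Alox15-/-, a label for loss of the lipid-oxidizing enzyme 15-lipoxygenase, and were differentiated to Tregs in vitro with IL-2, TGF-β and beads against CD3 and CD28. The labels give the C57BL/6 background for both groups, the methods give female and male mice aged 10 to 12 weeks with the WT and the Alox15-deficient animals from different suppliers, and the naive cells were isolated by immunomagnetic negative selection. RNA was profiled at day 2 of differentiation by MACE-seq, which counts transcripts near their 3′ ends, in 4 libraries labelled Alox15-/- and 4 labelled WT. The study counts its Alox15-/- replicates of this experiment as mice and names no unit for WT, and the labels do not tie libraries to single mice, so that p-values measure the spread between these libraries.

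Total counts ran from 3723151 to 6952596 for the Alox15-/- label and from 4810125 to 9538962 for the WT label. Alox15 itself (chromosome 11, 70344152 to 70352031, minus strand, GRCm38) went against the label, with 63.7 to 70.5 CPM in the libraries labelled Alox15-/- and 1.88 to 9.02 CPM in those labelled WT (log2 fold change 3.65, edgeR adjusted p = 1.08e-05). A count on Alox15 checks the genotype only if the sequenced end of the transcript is removed by the deletion, which was not examined here. The groups are therefore named by their labels throughout, and each fold change is that of the libraries labelled Alox15-/- relative to the libraries labelled WT. Of the 9 T cell and Treg identity genes, 9 were expressed and 0 passed the threshold, and their summed level was 3138 to 3330 CPM for the Alox15-/- label and 3339 to 3543 CPM for the WT label, without overlap. Cd4 was lower in each library labelled Alox15-/- than in each WT library (log2 fold change -0.32, edgeR unadjusted p = 0.0107 and adjusted p = 0.357), and Foxp3, the master transcription factor of Tregs, was at 71.7 to 114 CPM and at 93.4 to 195 CPM (log2 fold change -0.42, edgeR adjusted p = 0.655). The fold change of Foxp3 rested on WT replicate 3, at 195 CPM against 93.4 to 109 CPM in the other WT libraries, and was -0.11 without it (edgeR adjusted p = 0.878). Without a filter on low counts it was -0.45 and passed (edgeR adjusted p = 0.0189).

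No member of complexes III to V changed past the threshold between the labels. Of the 38 tested members, 0 passed an adjusted p of 0.05 in the quasi-likelihood test of edgeR with Benjamini-Hochberg adjustment, where 1.24% of the 12700 genes tested did (158 genes). An unadjusted p under 0.05 was found for 1 member, Atp5j2, whereas 7.84% of all genes had one. That count was 0 without Alox15-/- replicate 3, without WT replicate 1 and with the replicate number as a block. It was 2 with limma-voom and 4 without Alox15-/- replicate 1. The smallest adjusted p of a member was 0.623. The fitted values lay above 0 for 28 members and below 0 for 10, with a median log2 fold change of 0.097, where 48.2% of all genes lay above 0 and the median over all genes was -0.0075.

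The fits bounded most of these differences closely. The 95% interval of the log2 fold change lay wholly within ±0.5 for 35 of 38 members (92.1%), compared with 54.9% of all genes tested. The 3 exceptions, Cox6b2, Cox7a1 and Atp5s, had mean levels of 7.97, 3.72 and 5.04 CPM in the WT libraries, the lowest of the tested members. The coefficient of variation of Cox6b2 was 31.3% in the libraries labelled Alox15-/- and 23.7% in those labelled WT. Standard errors of the members ran from 0.086 to 0.35 with a median of 0.11.

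**Figure D1:**
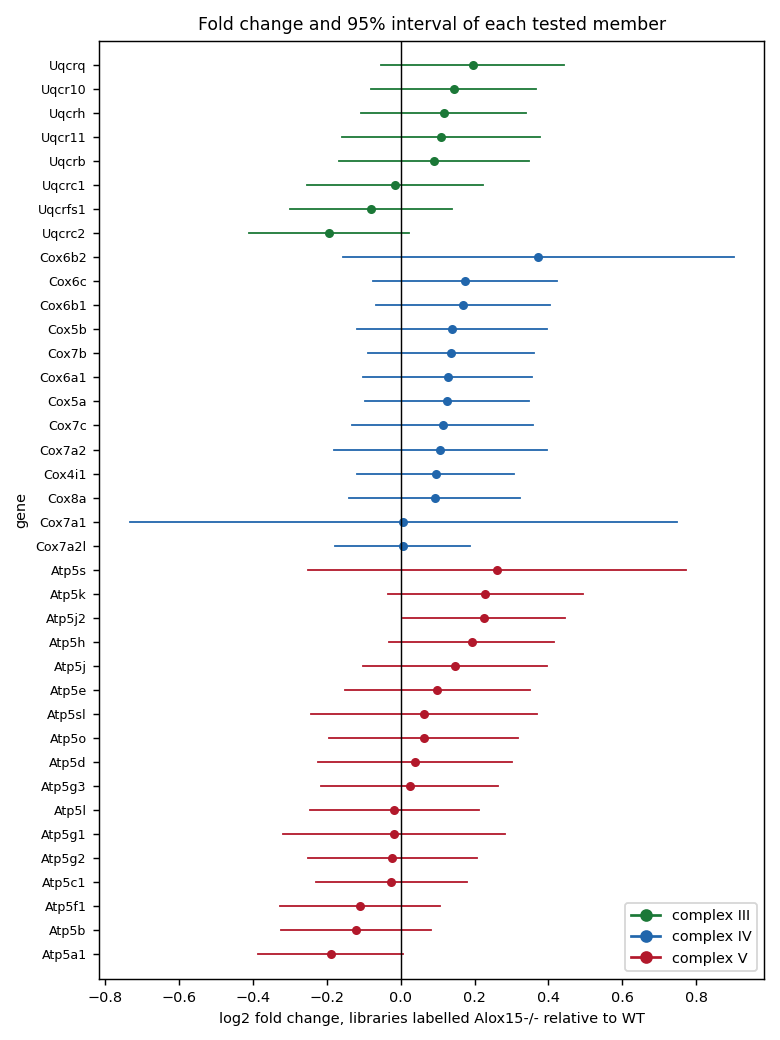
Log2 fold change of each tested member (point) with its 95% interval (line), for the 4 libraries labelled Alox15-/- relative to the 4 labelled WT, by complex. All 13 points of complex IV lie above 0, the points of complexes III and V lie on both sides, and 37 of the 38 intervals include 0.

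Counts on the 38 tested members made up 1.01% to 1.20% of all counts in a library, and the groups overlapped. Summed CPM over complex III was 1685 ± 151 (SD, n = 4) for the Alox15-/- label and 1628 ± 87.0 (SD, n = 4) for the WT label. Complex IV summed to 3655 ± 363 and 3373 ± 289 CPM, and complex V to 5822 ± 537 and 5966 ± 386 CPM, each overlapping between the groups. The members moved largely in parallel from library to library. The library labelled Alox15-/- replicate 3 held the highest level of 24 of the 38 members, WT replicate 3 held the lowest level of 19, and Alox15-/- replicate 1 held the lowest level of 13. A member's levels in a library are scaled by 1 factor for that library, so that the 38 genes are not independent of each other. Without Alox15-/- replicate 3 the median log2 fold change of complex V was -0.040 in place of 0.038, without WT replicate 3 it was -0.022, and without Alox15-/- replicate 1 it was 0.098. The median of complex III was 0.026 without WT replicate 3 and 0.057 without Alox15-/- replicate 2, in place of 0.10.

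**Figure D2:**
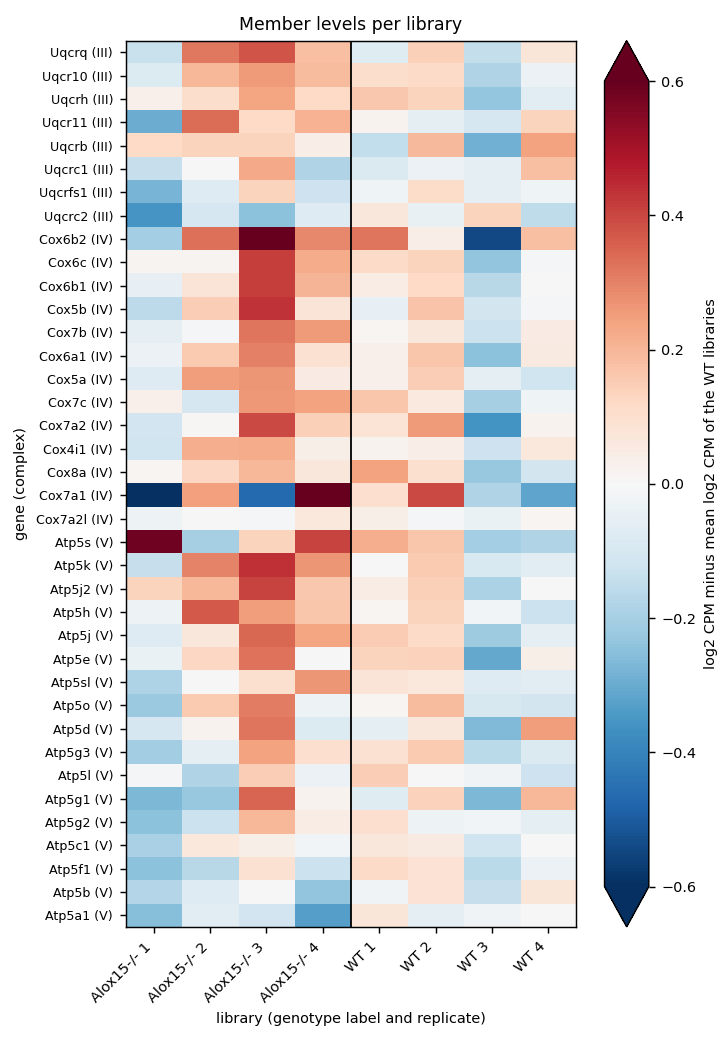
Level of each tested member (rows, with its complex) in each library (columns), as log2 CPM minus the mean log2 CPM of the 4 WT libraries, with colours clipped at ±0.6. The column of Alox15-/- replicate 3 is mostly red and the columns of Alox15-/- replicate 1 and WT replicate 3 mostly blue. The mean log2 CPM of complex IV ran from 7.07 to 7.51 within the Alox15-/- label and from 7.03 to 7.36 within the WT label.

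In complex III, the 5 small subunits had fitted values above 0 and the 3 large ones below 0, and 0 of 8 members passed the threshold. The 3 large members are Uqcrc1 and Uqcrc2, the core proteins on the matrix side, and Uqcrfs1, the Rieske iron-sulfur protein that carries electrons to cytochrome c1. Uqcrc2 (chromosome 7, 120635176 to 120659524, plus strand) had the smallest p of the complex. Its level was 204, 243, 219.6 and 247 CPM in the libraries labelled Alox15-/- and 273, 252, 285 and 234 CPM in those labelled WT. The lowest WT library lay among the libraries of the other label, and the groups overlapped. Its log2 fold change was -0.19 (SE 0.101, 95% interval -0.41 to 0.022, edgeR adjusted p = 0.696). Pdzd9 overlaps Uqcrc2 on the other strand, and the sources used here do not say whether counting used the strand. The other large members had log2 fold changes of -0.016 for Uqcrc1 and -0.080 for Uqcrfs1. As each library was left out, Uqcrc1 ran from -0.10 (without Alox15-/- replicate 3) to 0.050 (without WT replicate 4), and Uqcrfs1 from -0.15 (without Alox15-/- replicate 3) to -0.018 (without Alox15-/- replicate 1).

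The small subunits of complex III surround the cytochrome b core, and Uqcrh is the acidic hinge protein between cytochrome c1 and cytochrome c. The member with the highest fold change was Uqcrq, the ubiquinone-binding protein next to cytochrome b, and it is also the member nearest to Alox15, 16.92 Mb away on chromosome 11 (53427922 to 53430831, minus strand). Uqcrq stood at 256, 349.6, 364 and 318 CPM in the libraries labelled Alox15-/- and at 267, 309, 254 and 295 CPM in those labelled WT. Of the libraries labelled Alox15-/-, 3 lay above every WT library and replicate 1 lay among the WT libraries. Uqcrq had a log2 fold change of 0.20 (SE 0.116, 95% interval -0.052 to 0.44, edgeR adjusted p = 0.748). Uqcr10, another small subunit, ran from 242 to 305 CPM and from 226 to 277 CPM in the same order of labels, with a log2 fold change of 0.14 (edgeR adjusted p = 0.807). Uqcrh, Uqcr11 and Uqcrb had log2 fold changes of 0.12, 0.11 and 0.091. These rested partly on single libraries. Without WT replicate 3 the value was 0.048 for Uqcrh, 0.090 for Uqcr10 and 0.0049 for Uqcrb, and that of Uqcrb was 0.041 without WT replicate 1, 0.16 without WT replicate 2 and 0.18 without WT replicate 4. Uqcr11 was at 0.031 without Alox15-/- replicate 2 and at 0.22 without Alox15-/- replicate 1.

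In complex IV, the fitted value was above 0 for each of the 13 tested members, and 0 of the 13 passed the threshold, with 0 unadjusted p under 0.05. The median log2 fold change was 0.13, from 0.0058 for Cox7a2l to 0.37 for Cox6b2. The count above 0 was 11 without Alox15-/- replicate 4 or without WT replicate 3. The median was 0.060 without WT replicate 3, 0.072 without Alox15-/- replicate 3 and 0.19 without Alox15-/- replicate 1. The smallest p belonged to Cox6b1, a subunit on the side of the intermembrane space, at 266, 289.6, 365 and 316 CPM in the libraries labelled Alox15-/- and 283, 298, 245 and 274 CPM in those labelled WT. Replicates 3 and 4 of the Alox15-/- label lay above every WT library and the other two lay among them. Its log2 fold change was 0.17 (SE 0.110, 95% interval -0.066 to 0.41, edgeR adjusted p = 0.773). Cox6c, a single-span membrane subunit, ran from 221 to 293 CPM and from 186 to 241 CPM, with a log2 fold change of 0.17 (edgeR adjusted p = 0.782). Without Alox15-/- replicate 3 these values were 0.085 for Cox6b1 and 0.089 for Cox6c, and without WT replicate 3 that of Cox6c was 0.10. Cox6c overlaps Vps13b on the other strand.

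Several subunits of complex IV exist in alternative forms made from different genes, and the forms known from heart, muscle, lung or testis were counted rarely. Subunit 4 came as Cox4i1, at 546 ± 60.8 CPM (SD, n = 4) for the Alox15-/- label and 511 ± 28.9 CPM (SD, n = 4) for the WT label, and its log2 fold change was 0.094. It was 0.16 without Alox15-/- replicate 1, 0.054 without Alox15-/- replicate 2, 0.055 without Alox15-/- replicate 3 and 0.060 without WT replicate 3. The oxygen-dependent lung form Cox4i2 was counted 4 to 16 times per library and was not tested. Subunit 6A came as Cox6a1, at 578 ± 56.3 and 530 ± 61.3 CPM with a log2 fold change of 0.13, which was 0.056 without WT replicate 3 and 0.072 without Alox15-/- replicate 3. Its heart and skeletal muscle form Cox6a2 was counted 3 to 11 times per library. Cox6b2, the testis form of subunit 6B, passed 2 CPM in 8 of 8 libraries. It stood at 6.76, 9.77, 14.4 and 9.50 CPM in the libraries labelled Alox15-/- and at 9.72, 8.01, 5.35 and 8.81 CPM in those labelled WT, from 28 to 76 counts each. The highest and the lowest of the 8 libraries had opposite labels, and the other libraries were interleaved. The log2 fold change of Cox6b2 was 0.37 (SE 0.248, 95% interval -0.16 to 0.90, edgeR adjusted p = 0.782), and it ran from 0.15 (without Alox15-/- replicate 3) to 0.52 as each library was left out, with 0.20 without WT replicate 3.

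The forms of subunit 7A are a ubiquitous gene, Cox7a2, a heart and skeletal muscle gene, Cox7a1, and a related gene, Cox7a2l, whose product joins complexes III and IV into supercomplexes. Cox7a2 was at 325 ± 50.8 and 302 ± 51.5 CPM, with a log2 fold change of 0.11, which was 0.0039 without WT replicate 3, 0.0062 without Alox15-/- replicate 3 and 0.20 without WT replicate 2. Cox7a1 rested on 6 to 42 counts per library, and its log2 fold change of 0.0071 turned to -0.10 with limma-voom and to -0.42 without Alox15-/- replicate 4. Cox7a2l was the most even member of all, at 203, 208, 206 and 217 CPM in the libraries labelled Alox15-/- and at 213, 207, 202 and 209.9 CPM in those labelled WT. The 2 groups covered the same narrow range. Its coefficient of variation was 2.83% and 2.15%, and its log2 fold change was 0.0058 (SE 0.086, 95% interval -0.18 to 0.19). Cox7b was at 367 ± 47.7 and 334 ± 20.3 CPM with a log2 fold change of 0.14, which was 0.074 without Alox15-/- replicate 3. Its testis form Cox7b2 was counted 0 to 6 times per library, where a count of 0 allows up to 0.814 CPM in the shallowest library. Cox8a, the ubiquitous form of a small membrane subunit, was at 420 ± 23.8 and 394 ± 57.2 CPM with a log2 fold change of 0.092, which ran from 0.025 without WT replicate 3 to 0.18 without WT replicate 1.

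In complex V, 10 members lay above 0 and 7 below 0, with a median log2 fold change of 0.038, and 0 of 17 passed the threshold. The split depended on single libraries, with 7 above 0 without Alox15-/- replicate 3, 8 without WT replicate 3 and 13 without Alox15-/- replicate 1 or without Alox15-/- replicate 2. With upper quartile scaling, which moved the median over all genes to 0.021, 14 of the 17 lay above 0. The catalytic F1 head projects into the matrix and is built from the subunits alpha (Atp5a1), beta (Atp5b), gamma (Atp5c1), delta (Atp5d) and epsilon (Atp5e). Atp5a1 (chromosome 18, 77773729 to 77782869, plus strand) was at 864, 986, 953 and 822 CPM in the libraries labelled Alox15-/- and at 1087, 991, 1019 and 1036 CPM in those labelled WT. It was the 1 member whose groups did not overlap, although the nearest libraries of the 2 labels differed by less than the libraries within a label, whereas 5.25% of all genes did not overlap, 2.51% on the lower side. The log2 fold change was -0.19 (SE 0.092, 95% interval -0.39 to 0.0072, edgeR adjusted p = 0.664). Atp5a1 overlaps Haus1 on the other strand. Atp5b was at 1335 ± 98.0 and 1452 ± 103 CPM with a log2 fold change of -0.12, and Atp5c1 was at 183 ± 14.2 and 186 ± 10.8 CPM with a log2 fold change of -0.025. The 2 small F1 subunits were at 0.038 for Atp5d and 0.099 for Atp5e, and both values rested on single libraries. Atp5e was at 0.011 without WT replicate 3 and at 0.026 without Alox15-/- replicate 3. Atp5d turned to -0.039 and -0.058 without the same libraries and was at 0.13 without WT replicate 4. Atp5c1 ran from -0.059 without WT replicate 3 to 0.029 without Alox15-/- replicate 1.

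Outside the F1 head, complex V has a membrane part and a peripheral stalk that holds the head in place. Atp5j2 (subunit f, a small membrane subunit; chromosome 5, 145183698 to 145192062, minus strand) had the smallest p of all 38 members. It was at 231, 242, 279 and 236 CPM in the libraries labelled Alox15-/- and at 217, 233, 185 and 211 CPM in those labelled WT. Only replicate 1 of the Alox15-/- label and replicate 2 of the WT label crossed. The log2 fold change was 0.22 (SE 0.103, 95% interval 0.0062 to 0.44, unadjusted p = 0.0446, edgeR adjusted p = 0.623). Atp5k (subunit e, a partner of subunit g in dimers of the enzyme) was at 64.2, 86.9, 95.7 and 85.0 CPM and at 70.7, 79.0, 66.3 and 67.6 CPM in the same order of labels. Replicate 1 of the Alox15-/- label held the lowest level and the other 3 of that label lay above every WT library. The log2 fold change was 0.23 (SE 0.123, edgeR adjusted p = 0.712), and without that library it was 0.33 (edgeR adjusted p = 0.386). Without Alox15-/- replicate 3 it was 0.16 (edgeR adjusted p = 0.906). The highest fitted value of the complex was that of Atp5s, coupling factor B, at 0.26 with a 95% interval from -0.25 to 0.77 on 16 to 46 counts per library, and it was 0.15 without Alox15-/- replicate 1. Atp5s and the related Atp5sl (log2 fold change 0.063, and -0.022 without Alox15-/- replicate 4; listed as Dmac2 in GENCODE) carry the Atp5 symbol without being structural subunits of the enzyme. Among the stalk subunits, Atp5f1 (subunit b) was at 489 ± 50.5 and 528 ± 45.3 CPM with a log2 fold change of -0.11, which ran from -0.18 without Alox15-/- replicate 3 to -0.065 without Alox15-/- replicate 1.

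The c-ring, which turns with the flow of protons, is built from a single mature subunit that is made from 3 genes, Atp5g1 on chromosome 11 (96068852 to 96075670), Atp5g2 on chromosome 15 (102662864 to 102672352) and Atp5g3 on chromosome 2 (73908447 to 73911326), all on the minus strand. The last 150 coding bases of each, stop codon included, are shown because they code for the end of the shared mature subunit while the genes are counted separately, and capitals mark the positions at which the 3 genes are not all alike (GRCm38, GENCODE M21).
Atp5g1: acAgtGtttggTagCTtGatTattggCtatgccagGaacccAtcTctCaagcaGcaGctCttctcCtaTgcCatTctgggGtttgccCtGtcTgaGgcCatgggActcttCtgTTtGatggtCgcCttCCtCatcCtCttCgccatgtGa
Atp5g2: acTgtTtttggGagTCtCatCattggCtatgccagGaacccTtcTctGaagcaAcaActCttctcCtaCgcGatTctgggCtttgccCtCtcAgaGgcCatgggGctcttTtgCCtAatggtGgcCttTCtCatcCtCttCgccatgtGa
Atp5g3: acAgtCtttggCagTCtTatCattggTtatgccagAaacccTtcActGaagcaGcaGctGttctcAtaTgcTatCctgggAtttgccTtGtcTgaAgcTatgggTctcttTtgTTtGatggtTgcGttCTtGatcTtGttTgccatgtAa
The stretches had 39 such positions, of which 33 were at the third position of a codon. Identity was 84.7% between Atp5g1 and Atp5g2, 80.7% between Atp5g1 and Atp5g3, and 78.0% between Atp5g2 and Atp5g3. The levels of the 3 genes were even between the labels. Atp5g1 was at 243 ± 50.2 and 247 ± 35.5 CPM, Atp5g2 at 193 ± 26.2 and 196 ± 9.46 CPM, and Atp5g3 at 532 ± 71.2 and 523 ± 53.7 CPM. Their log2 fold changes were -0.018, -0.022 and 0.025, each with a 95% interval within ±0.32, and each changed sign as 1 or another library was left out.

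Many members have near-identical copies elsewhere in the genome, and reads can be split between them. A search of the annotated transcripts at 90% identity over at least 200 bases listed 55 copies, 36 of which were rows of the count table, for 18 of the 41 members. Copies took 74.3% ± 2.19 of the counts of Atp5l and its copies together in the WT libraries and 75.9% ± 1.62 in the libraries labelled Alox15-/- (SD, n = 4). The share was 61.7% ± 1.89 and 62.6% ± 0.621 for Atp5g2, 53.4% ± 3.23 and 53.7% ± 1.82 for Atp5k, and 47.2% ± 1.37 and 46.9% ± 1.03 for Atp5h. The counts of these genes are thus uncertain in level. The share overlapped between the labels for 17 of the 18 members, and the exception was Uqcrh, at 13.6% ± 1.99 and 10.9% ± 0.902. Of the 25 copies that were tested, 17 lay above 0 and 8 below, and 0 passed the threshold. Of these copies 1, Gm4707, a copy of Atp5b, had groups that did not overlap, where 5.25% of all genes did not. Its log2 fold change was -0.23 (edgeR unadjusted p = 0.0301 and adjusted p = 0.560). With each member summed with its copies, 0 members passed the threshold, and the log2 fold change of Uqcrh was 0.073 in place of 0.12, that of Atp5c1 -0.046 in place of -0.025, and that of Atp5l 0.069 in place of -0.017.

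**Figure D3:**
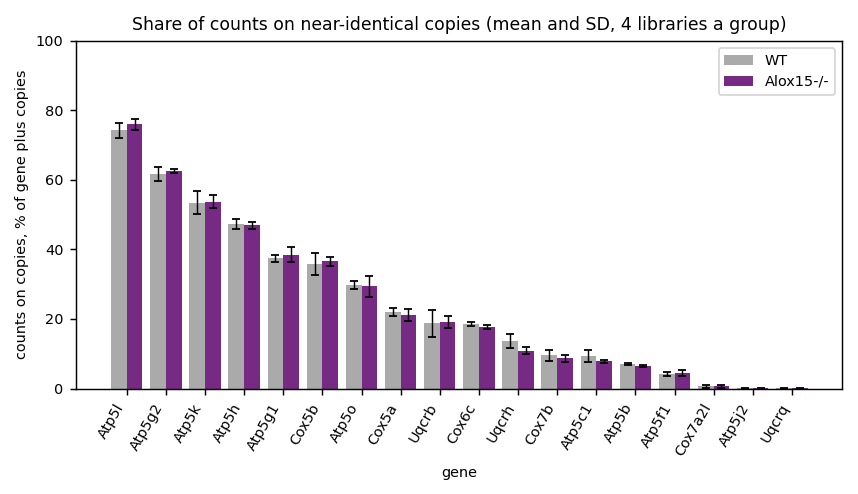
Share of counts on near-identical copies, as a percentage of the counts on the gene and its copies together, for the 18 members with a copy in the table (bars are means and lines the SD of 4 libraries a group). Shares run from about 0 to 75.9% and differ far more between genes than between the labels.

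The fitted values also went with the length of the coding sequence, and so with the size of the encoded subunit. The split used here, at a coding length of 750 bases, was chosen after the values had been seen, and Uqcrc1, Uqcrfs1, Atp5b, Atp5c1, Atp5f1 and Atp5sl are named for it. Of the 8 members of at least 750 coding bases, 7 lay below 0 and 1, Atp5sl, above it, with a median log2 fold change of -0.095. Of the 30 shorter members, 27 lay above 0 and 3 below, with a median of 0.12, and the 3 were Atp5l, Atp5g1 and Atp5g2. The count above 0 ran from 23 of 30 (without WT replicate 3) to 29 as each library was left out, with 24 without Alox15-/- replicate 3 and 25 without Alox15-/- replicate 4, and of the 8 longer members 3 lay above 0 without Alox15-/- replicate 1 and 2 without WT replicate 4. As each library was left out, the median of the longer members ran from -0.16 (without Alox15-/- replicate 3) to -0.042 (without Alox15-/- replicate 1), and that of the shorter members from 0.058 (without WT replicate 3) to 0.18 (without Alox15-/- replicate 1). Spearman's rho between coding length and log2 fold change was -0.59 over the 38 members, as a description of genes that share the same 8 libraries. It was -0.76 over the 8 members of complex III, -0.14 over the 13 of complex IV, whose longest has 507 coding bases, and -0.58 over the 17 of complex V.

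A tendency of the same sign was present beyond these complexes. Over the 10498 tested genes with a coding length, rho was -0.17, with a median log2 fold change of -0.039 for the 8347 genes of at least 750 bases and 0.047 for the 2151 shorter ones. Among genes of complex I and of its assembly factors (Ndufaf), all starting with Nduf, rho was -0.45 over 43 genes. The 11 longer genes had a median of -0.023 and the 32 shorter ones a median of 0.12. The difference between the members and all other genes was not tested.

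**Figure D4:**
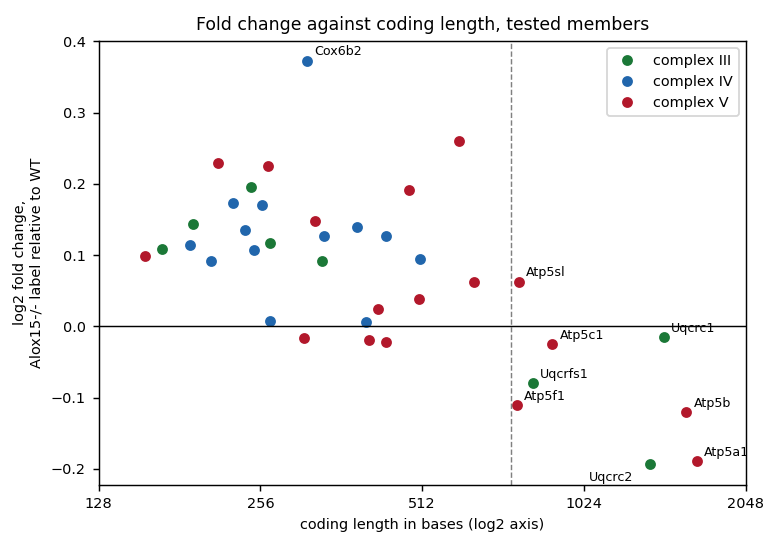
Log2 fold change of each tested member against the length of its coding sequence in bases (log2 axis), coloured by complex, with the dashed line at 750 bases. Of the 8 points to the right of the line, 7 lie below 0, and of the 30 to the left, 27 lie above it.

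Because the 8 longer members and the 30 shorter ones were counted in the same library, their balance does not depend on how libraries were scaled. The 8 longer members took 32.8%, 32.2%, 30.4% and 30.3% of the counts on all tested members in the libraries labelled Alox15-/-. They took 34.7%, 33.7%, 36.6% and 35.0% in those labelled WT. All 4 libraries labelled Alox15-/- lay below all 4 labelled WT, at 31.4% ± 1.27 against 35.0% ± 1.19 (SD, n = 4), which restates the split that was chosen on these values and carries no test. Within complex III alone the share was 33.4% to 34.3% against 36.2% to 41.4%, and within complex V alone 48.5% to 52.3% against 52.7% to 55.4%, and the labels overlapped in neither. Within the Alox15-/- label the deepest library had the lowest share and within the WT label the deepest library had the highest.

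**Figure D5:**
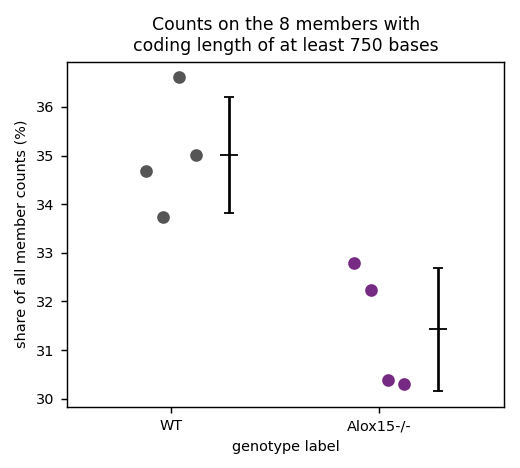
Share of the counts on all tested members that fell on the 8 members of at least 750 coding bases, in percent, for each library (points), with the mean and SD of the 4 libraries of a label beside them (the axis does not start at 0). The libraries labelled WT lie between 33.7% and 36.6% and those labelled Alox15-/- between 30.3% and 32.8%.

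Nuclear respiratory genes are known targets of the factors NRF1, GABP (an ETS factor) and YY1, and their promoter sequences are a feature that the choice by symbol did not use. RefSeq windows of 250 bases before to 50 after the start (GRCm38.p6) were matched for 31 of the 41 members, with 35 windows in all. The NRF1 motif (GCGCA and GCGC with any 1 base between them, on either strand) was present in 22.9% of the member windows and in 4.60% of all 32851 windows. The ETS motif CCGGAAG, searched the same way, was present in 28.6% and 8.86%, and the YY1 motif AANATGGCG in 14.3% and 2.38%. The motifs were searched separately, and a match describes letters in a window and not the binding of a factor. Both an NRF1 and an ETS match were held by Atp5h, Atp5k and Cox6a1, of which 2 stretches are shown with the matches in capitals, for Atp5h (chr11:115419951-115420070, minus strand) and for Cox6a1 (chr5:115348968-115349130, minus strand).
Atp5h: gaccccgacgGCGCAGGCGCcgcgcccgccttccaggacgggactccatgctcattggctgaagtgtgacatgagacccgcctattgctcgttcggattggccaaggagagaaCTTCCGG
Cox6a1: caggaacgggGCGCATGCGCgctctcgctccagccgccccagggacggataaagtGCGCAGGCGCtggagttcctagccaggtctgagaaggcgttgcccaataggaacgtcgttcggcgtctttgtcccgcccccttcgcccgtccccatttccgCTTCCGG
Atp5h, the d subunit of the stalk, had a log2 fold change of 0.19 (edgeR adjusted p = 0.718) and Cox6a1 one of 0.13. The factors themselves were expressed, and of the 11 tested regulators of mitochondrial biogenesis 0 passed the threshold, with log2 fold changes of -0.17 for Nrf1, 0.13 for Gabpa and -0.096 for Yy1. Gabpa was at 0.052 without Alox15-/- replicate 1 and at 0.21 without Alox15-/- replicate 4, and Yy1 at -0.047 without Alox15-/- replicate 3. Gabpa overlaps the member Atp5j on the other strand.

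The rest of the pathway was described with lists chosen with earlier results of these data known. Of 6 assembly factors of complex III, 1 passed the threshold, Lyrm7, which holds the Rieske protein before its insertion. Lyrm7 (chromosome 11, 54826866 to 54860916, minus strand, 15.5 Mb from Alox15) was at 2.17, 2.99, 1.89 and 1.73 CPM in the libraries labelled Alox15-/- and at 7.996, 5.29, 5.45 and 7.56 CPM in those labelled WT. The groups were far apart on low counts, 9 to 12 against 33 to 54 per library. This gave a log2 fold change of -1.60 (SE 0.281, 95% interval -2.20 to -1.01, edgeR adjusted p = 0.00614), and Lyrm7 passed the threshold in each of the 8 fits that left out 1 library. Its client Uqcrfs1 had a log2 fold change of -0.080 (95% interval -0.30 to 0.14).

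The other lists of the pathway held 0 genes past the threshold. Of 25 tested assembly factors of complex IV, 14 lay above 0 and 11 below, with a median log2 fold change of 0.080. The 3 assembly factors of complex V, Atpaf1, Atpaf2 and Tmem70, lay below 0 at -0.37, -0.19 and -0.032 (that of Tmem70 ran from -0.11 without WT replicate 3 to 0.027 without WT replicate 1). The groups did not overlap for Atpaf1, a chaperone of the beta subunit (edgeR unadjusted p = 0.0126 and adjusted p = 0.388). Nor did they for Uqcc1, an assembly factor of complex III (log2 fold change -0.16, edgeR adjusted p = 0.803). Of all genes, 5.25% did not overlap. Of 6 subunits and carriers outside the symbol rule, 5 lay above 0, and Atpif1, the inhibitor of ATP synthase, had the highest value at 0.28 (unadjusted p = 0.0337, edgeR adjusted p = 0.574). The 6 genes of complexes III to V encoded by mitochondrial DNA ran from -0.24 for mt-Atp8 to 0.34 for mt-Co2, with 4 above 0. The value of mt-Atp8 was 0.22 without WT replicate 4, -0.43 without WT replicate 3 and -0.062 without Alox15-/- replicate 4, and that of mt-Co2 was 0.21 without WT replicate 4 or without Alox15-/- replicate 4. Of the 4 subunits of complex II, 1 lay above 0. Of 43 tested Nduf genes, which are those of complex I with its assembly factors, 33 lay above 0 with a median of 0.080. Small positive values were thus not particular to complexes III to V.

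Markers of other cells also moved with the labels. Summed over erythroid markers, counts were 908 to 3492 CPM in the libraries labelled Alox15-/- and 34.7 to 123 CPM in those labelled WT, and 5 of the 5 tested genes passed the threshold, of 9 listed. Mast cell and basophil markers were at 146 to 378 and 59.6 to 84.6 CPM (8 of 9 tested passed, of 11 listed). Eosinophil markers were at 21.7 to 78.4 and 1.25 to 10.4 CPM (2 of 2, of 9 listed). Myeloid markers were at 49.8 to 373 and 12.6 to 22.5 CPM (5 of 7, of 12 listed). NK and γδ T cell markers were at 106 to 204 and 58.3 to 71.2 CPM (4 of 7, of 9 listed). Those that passed were the γδ genes Trdc, Tcrg-C1, Tcrg-C2 and Tcrg-C4. Some markers, such as Prss34 at 0.314 to 1.31 CPM in the WT libraries, met the filter only through the libraries labelled Alox15-/-. The numbers that passed are therefore no test of these cell types. B cell markers overlapped, at 212 to 310 and 208 to 301 CPM, mostly from Ighm at means of 263 and 257 CPM. Of the 3 tested, of 6 listed, 1 passed the threshold, Ms4a1. It was lower for the Alox15-/- label (log2 fold change -2.64, edgeR adjusted p = 0.00413) and met the filter through the WT libraries only. Of the 9 eosinophil genes listed, Prg3, Ear2 and Ear6 were at 0 in each WT library and at 0 to 16 counts in those labelled Alox15-/-. Ccr3 went the other way, with 39 counts (6.25 CPM) in WT replicate 2 and 0 or 1 in each library labelled Alox15-/-. Siglecf and Il5ra had 0 to 3 counts per library. The neutrophil gene Ly6g was at 0 in each library but 1. In these bulk libraries fewer cells of a type and less RNA per cell cannot be told apart, and the part of other cells in the members' values was not tested.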

How the data were processed

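Raw MACE-seq counts, 1 per symbol and library and not normalized, were deposited by the authors for 8 libraries, and columns were assigned by their names. The methods name the MACE-Seq Kit, the labels a small RNA kit of the same company. The submitters' processing notes list Bowtie, edgeR and GRCm38, and the counting tool, strand setting and removal of duplicates are not given in the sources used here. The members and lists were chosen with earlier results of these data known.

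The 12700 genes that reached 2 CPM in 4 or more libraries were scaled by TMM and compared with the quasi-likelihood test of edgeR 4.0.16 in R 4.3.3, with the group as the only term, two-sided, and Benjamini-Hochberg adjustment over all of them at 0.05. The steps were checked on simulated counts. The biological coefficient of variation was 14.5%. CPM were scaled by TMM and not divided by length, so that levels of different genes were not ranked. Intervals and limits for a count of 0 (3 counts per library) cover these libraries and counting error only.

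Named with values are, in each complex, the 3 members with the smallest p and those with the highest and lowest fold change, members within 20 Mb of Alox15, alternative forms of a subunit, genes past the threshold in the lists of the rest of the pathway, and Alox15. Positions and coding lengths came from GENCODE M21, copies from blastn 2.17.0, promoters from RefSeq. Other genes are named beside a list, a copy or a sequence after their values were seen. Alternatives were the scaling of DESeq2 1.42.0 or of the upper quartile, other filters, DESeq2, limma-voom 3.58.1, the replicate number as a block, summed copies, and each library left out.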

Additional observations from a re-analysis of the deposited data

Results flagged for a closer look

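Uqcrb, a small subunit of complex III, was at 120 CPM in the library labelled Alox15-/- replicate 4 and at 127 to 128 CPM in the other 3 libraries of that label. The gap to the nearest library took 0.861 of the range of the 4, above the critical value of 0.829 in Dixon's test for an outlying sample. Foxp3 was at 195 CPM in WT replicate 3 and at 93.4 to 109 CPM in the other WT libraries (0.844 of the range), and mt-Atp8, a subunit of complex V encoded by mitochondrial DNA, was at 20.8 CPM in WT replicate 4 and at 6.76 to 8.65 CPM in the others (0.865 of the range). These were the 3 such cases among 112 groups of 4 libraries examined, where chance gives about 1 in 20.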

How the results depend on the processing

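No member passed the adjusted threshold of 0.05 under any alternative tried. The number of all genes past the threshold was 388 without a filter on low counts, and 86 to 172 with each library left out (95 without Alox15-/- replicate 1, 86 without replicate 2, 93 without replicate 3, and 105 without WT replicate 2). Of the 8 members of at least 750 coding bases, 3 lay above 0 with upper quartile scaling, 1 to 3 with each library left out, of which 3 without Alox15-/- replicate 1 and 2 without WT replicate 4. The sign of the log2 fold change turned under at least 1 alternative for 11 of the 38 members. With upper quartile scaling Atp5c1 was at 0.0035, Atp5g1 at 0.010, Atp5g2 at 0.0064, Atp5l at 0.011 and Uqcrc1 at 0.012. Summed with copies, Atp5g1 was at 0.0012, Atp5g2 at 0.011 and Atp5l at 0.069. Cox7a1 was at -0.0072 with DESeq2, -0.10 with limma-voom, -0.013 without a filter and -0.095 with the replicate block, and Cox7a2l at -0.016 without a filter. With each library left out, Atp5c1 ran from -0.059 to 0.029, Atp5d from -0.058 to 0.13, Atp5l from -0.070 to 0.035, Atp5o from -0.023 to 0.15, Atp5g1 from -0.16 to 0.060, Atp5g2 from -0.099 to 0.047, Atp5g3 from -0.048 to 0.098, Atp5sl from -0.022 to 0.13, Cox7a1 from -0.42 to 0.25, Cox7a2l from -0.013 to 0.020 and Uqcrc1 from -0.10 to 0.050, and beyond the members Tmem70 from -0.11 to 0.027 and mt-Atp8 from -0.43 to 0.22. The cause was not tested. Foxp3 passed without a filter. Deviations of same-numbered libraries had correlations of 0.0691, 0.165, -0.178 and -0.0177, and those of differently numbered ones ran from -0.213 to 0.15. These values showed no pairing by number and are too few to exclude one. With the replicate block 146 genes and 0 members passed. Counts were lowest for Cox7a1, Atp5s and Cox6b2, and Cox4i2, Cox6a2 and Cox7b2 could not be tested.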
